A study of Mus musculus with 13 samples.

Results

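The cytosolic ribosomal protein genes are described here in the CA1 region of mouse organotypic entorhino-hippocampal tissue cultures. Members were taken by symbol, as Rpl or Rps followed by a number (with the endings a, a1 or x where these belong to the name), together with Rplp0, Rplp1, Rplp2 and Rpsa, and without symbols marked as pseudogenes. This gave 77 of 55291 symbols, 31 of the small and 46 of the large subunit, and all of them were measured in all 13 libraries. Each library came from the CA1 region of a single wildtype culture that had matured in vitro for at least 18 days. The groups were 5 control cultures without lesion, 4 cultures after Schaffer collateral lesion (SCL), which cuts the axons from CA3, and 4 cultures after entorhinal cortex lesion (ECL), which cuts the entorhinal input. The lesioned cultures were sampled 3 days after the cut, without the scar at the lesion site. The cultures were prepared from C57BL/6 pups of either sex, and CA1 was cut out as a whole, so that neurons and glia were measured together. The titles name CA1 as the tissue, whereas the protocol text speaks of the dentate gyrus. In controls, the summed level of 6 CA1 marker genes was 332 to 419 CPM (the counts of a gene, scaled to a common library total) and that of 6 dentate granule cell markers 181 to 323 CPM. Of the dentate markers, 2 had no counts in at least 1 of the 13 libraries, and none of the CA1 markers did. Whether dentate tissue was included was not tested.

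A ribosome joins a small subunit, which reads the mRNA, and a large subunit, which forms the peptide bonds, and most of its proteins are present in a single copy. Cells therefore make these proteins in matched amounts. Their mRNAs are abundant, short and stable, and most start with a C followed by a run of pyrimidines, the 5′ terminal oligopyrimidine (TOP) stretch, through which the kinase complex mTORC1 controls their translation. In neurons, part of the ribosomes lies in dendrites near synapses. The genes are also known for many processed pseudogenes, copies of the spliced mRNA inserted elsewhere in the genome, which can take reads away from the parent gene.

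The start regions are shown because the TOP stretch is the feature these mRNAs share. RefSeq promoter windows on GRCm38.p6 were found for 57 of the 77 members, and the span from 10 bases before to 10 bases after the start was searched on the sense strand for a C followed by at least 4 pyrimidines. At least 1 window of the gene held it in 31 of the 57 members (54.4%) and in 29.9% of all 27025 symbols with a window. Among genes with a single window the shares were 46.9% of 49 members and 26.3% of all symbols. The following windows are those of the members called after both lesions that had one (Rpl32 had none). Each gives 15 bases before and 15 bases from the annotated start, 5′ to 3′, and capitals mark the stretch.
Rpl7a: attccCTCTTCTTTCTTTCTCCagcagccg
Rpl27a: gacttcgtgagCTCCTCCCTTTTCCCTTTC
Rpl31: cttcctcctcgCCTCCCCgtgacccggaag
Rpl34: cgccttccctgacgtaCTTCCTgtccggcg
Rps7: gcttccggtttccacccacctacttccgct
Rps19: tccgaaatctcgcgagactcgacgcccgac
Rps3a1: ttaaagccggaagggcgaaagagcaagggt
They lie at chr2:26910792-26910821 (plus strand), chr7:109519180-109519209 (plus), chr1:39367836-39367865 (plus), chr3:130730384-130730413 (minus), chr12:28635939-28635968 (minus), chr7:24884577-24884606 (plus) and chr3:86142654-86142683 (minus). Rpl7a and Rpl27a, with stretches of at least 17 and at least 19 bases, moved in opposite directions after the lesions. Rps19 has 3 windows, of which the one shown lies 221 bases from the start of its reference transcript and another holds the stretch. The distance was 96 bases for Rps7, 78 for Rpl31, 48 for Rpl27a, 43 for Rpl7a, 34 for Rps3a1 and 0 for Rpl34. The Rps7 window holds runs of a C and 4 pyrimidines near both of its ends that do not lie wholly within the span searched and were not counted. The Rpl31 and Rpl34 windows hold such a run before their capitals. Capitals follow a run found within the span to its end or, in Rpl27a, to the end of the window. In Rpl7a the capitals begin where the span begins, within a longer run. A missing stretch says only that these letters are not within the span.

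The coding sequences of 3 members are shown beside their most abundant pseudogene, since the counts of these genes cannot be separated from such copies with certainty. In Rps19 and the pseudogene Rps19-ps6 (chromosome 12 from 110898114 to 110898551), 5 of 438 aligned coding bases differed. Bases 331 to 390 of the coding sequence hold 3 of these, given in capitals.
Rps19: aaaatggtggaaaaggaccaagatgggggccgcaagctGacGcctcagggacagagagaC
Rps19-ps6: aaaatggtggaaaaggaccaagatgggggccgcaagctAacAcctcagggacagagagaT
Rps10 and Rps10-ps2 (chromosome 16 from 20822145 to 20822640) differed in 5 of 496 bases, 4 of them in bases 379 to 438.
Rps10: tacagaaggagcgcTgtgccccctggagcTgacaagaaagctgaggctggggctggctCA
Rps10-ps2: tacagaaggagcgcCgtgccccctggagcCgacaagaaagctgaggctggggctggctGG
Rpl31 and Rpl31-ps8 (chromosome 15 from 90764279 to 90764656) were identical over all 378 coding bases, the first 60 of which are as follows.
Rpl31 and Rpl31-ps8: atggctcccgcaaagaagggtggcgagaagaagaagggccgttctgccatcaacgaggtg
Of the 77 members, 74 shared at least 1 stretch of 100 bases with a gene of another name, and 70 shared one with a total of 430 annotated pseudogenes. The share of 100-base stretches of the reference transcript that occurred under no other gene name ran from 1.63% in Rps27 to 100% in genes such as Rps3, Rps21, Rpl22 and Rpl32, with a median of 57.2%.

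Total counts lay between 14371152 and 21092612 in the controls, from 16405517 to 56786613 in the SCL cultures and from 20210165 to 46449937 in the ECL cultures. No sequencing batch or date is given, and the headings of the files name 2 male and 3 female control, 1 male and 3 female SCL and 3 male and 1 female ECL cultures. Markers of microglia rose: 14 of 15 were called higher after SCL and 10 after ECL, and their summed level was 669 to 826 CPM in controls, 1414 to 2794 after SCL and 1526 to 1969 after ECL, with no marker at 0 in any library. Of 10 cycling markers, 7 were tested after SCL, where 6 were called higher, and their sum was 39.8 to 82.3 CPM in controls, 149 to 171 after SCL and 61.3 to 132 after ECL. Of 10 markers each, 4 of astrocytes passed the test upward in SCL cultures and 3 upward and 1 downward in ECL cultures, 2 of oligodendrocytes were higher after either lesion, and 1 of pyramidal neurons was lower after either. The part of these cells in the results was not tested. In bulk RNA, fewer cells of a type and less RNA per cell cannot be told apart.

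In control cultures, levels per length spanned 3 orders of magnitude. Levels are given as CPM per kb of the reference transcript. Rps14, a protein of the small subunit platform, had the highest level with 1574 ± 593 CPM per kb (SD, n = 5), followed by Rpl41, the smallest protein of the ribosome, with 713 ± 64.6 and Rpl26 with 709 ± 88.6. The lowest tested members were Rpl28 (5.55 ± 1.47 CPM per kb), Rpl12, a protein at the base of the stalk (8.46 ± 1.94), and Rps23, which lies at the decoding site (9.51 ± 3.81). The median was 79.9 CPM per kb over all 77 members, 91.2 for the small and 70.2 for the large subunit. In this order only 6 of 76 neighbouring pairs differed in mean log2 level by more than the larger of their SDs. Among these were Rps14 above Rpl41, Rpl28 above Rpl24 and Rpl24 above Rps10, the lowest of all. Over all 13 libraries, lesioned ones included, the 10 most abundant members held 46.5% of the summed CPM of the 77 genes, and Rps14 alone held 10.1%. Reference transcripts of 3706 bases in Rps20 and 5130 bases in Rps15a lowered the level per length of these genes.

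Members with more sequence of their own had higher median levels. The 11 members with at least 90% unique stretches had a median of 319.8 CPM per kb, the 33 with 50 to 90% had 191.9 and the 33 with less than 50% had 31.7. When the counts of the pseudogenes that share a stretch were added, these medians were 319.8, 323.1 and 198.7 CPM per kb, and the ratio of the highest to the lowest member fell from 1608 to 98.9. Copies annotated as coding genes were not added. Examples are Rps27rt, with 170 ± 40.4 CPM in controls beside 19.9 on Rps27, and Rpl9-ps6, with 85.2 ± 6.07 beside 41.8 on Rpl9. Across the 77 genes of the same libraries, the unique share and log2 CPM per kb had a Pearson's r of 0.53 (Spearman's rho 0.57), and 0.25 (rho 0.31) with the pseudogenes added, given as descriptions. In 35 members the pseudogenes together held more counts in controls than the gene itself.

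**Figure D1:**
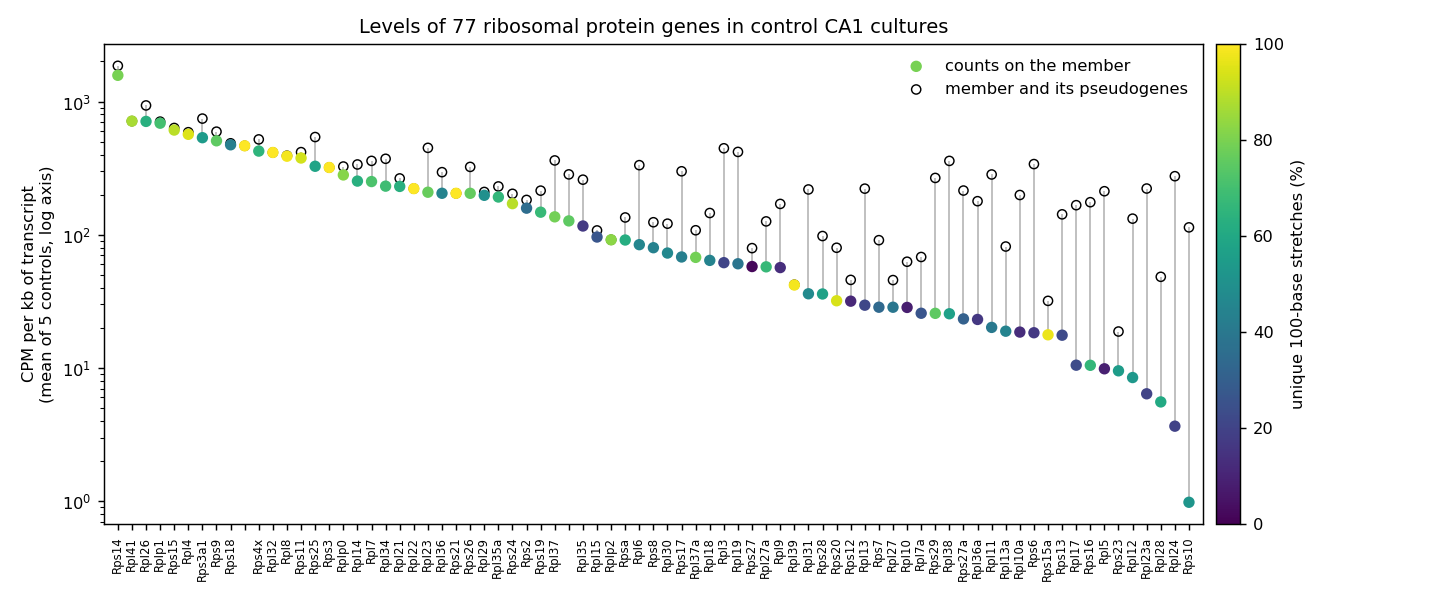
Level of each of the 77 genes in CPM per kb of the reference transcript (mean of 5 controls, log axis), in order of level, with colour giving the share of unique 100-base stretches and open circles the level with pseudogene counts added; 2 genes are plotted without a name. The filled points span a ratio of 1608 from highest to lowest and the open circles one of 98.9.

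Rpl23a, Rpl24 and Rps10 stayed under the mean minimum of 150 normalized counts and were not tested. Rps10, which lies near the mRNA entry of the small subunit, had 0.614, 0.895, 1.01, 0.273 and 1.55 CPM in the 5 controls, whereas Rps10-ps2 had 59.1 ± 10.9 CPM. Rpl24 had 2.47 ± 0.681 CPM beside 89.5 ± 11.9 on its pseudogene Gm9385, and Rpl23a had 3.58 ± 1.39 CPM beside 99.4 ± 9.71 on Rpl23a-ps3. These genes also overlap others: 475 exon bases of Rps10 lie in RPS10-NUDT3, 484 of Rpl24 in Gm28037 and 506 of Rpl23a in Tlcd1 on the opposite strand. With pseudogene counts added, all 3 were tested and had log2 fold changes between -0.16 and 0.08, with adjusted p-values from 0.410 to 0.985.

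Together the 77 genes took a small share of each library, and this share overlapped between the groups. It was 1.07, 1.26, 1.31, 0.892 and 0.939% of all counts in the controls, 0.933, 1.13, 1.60 and 1.38% after SCL, and 1.10, 1.43, 1.46 and 1.37% after ECL. The means were 1.09 ± 0.187% (SD, n = 5), 1.26 ± 0.288% (n = 4) and 1.34 ± 0.167% (n = 4). ECL replicates 2, 3 and 4 and SCL replicates 3 and 4 lay above every control, and the lowest library of either lesion lay within the controls. The ratio of small to large subunit CPM was 0.984 ± 0.0425, 0.957 ± 0.0175 and 0.982 ± 0.0426, without separation of the groups. The pseudogenes took 0.685 ± 0.101, 0.744 ± 0.191 and 0.805 ± 0.124%. The share of mitochondrially encoded genes separated controls from lesioned cultures, but not SCL from ECL: it was between 6.07 and 7.96% in controls, 3.42 to 4.26% in SCL cultures and 4.10 to 5.38% in ECL cultures. Its part in the results was not tested.

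**Figure D2:**
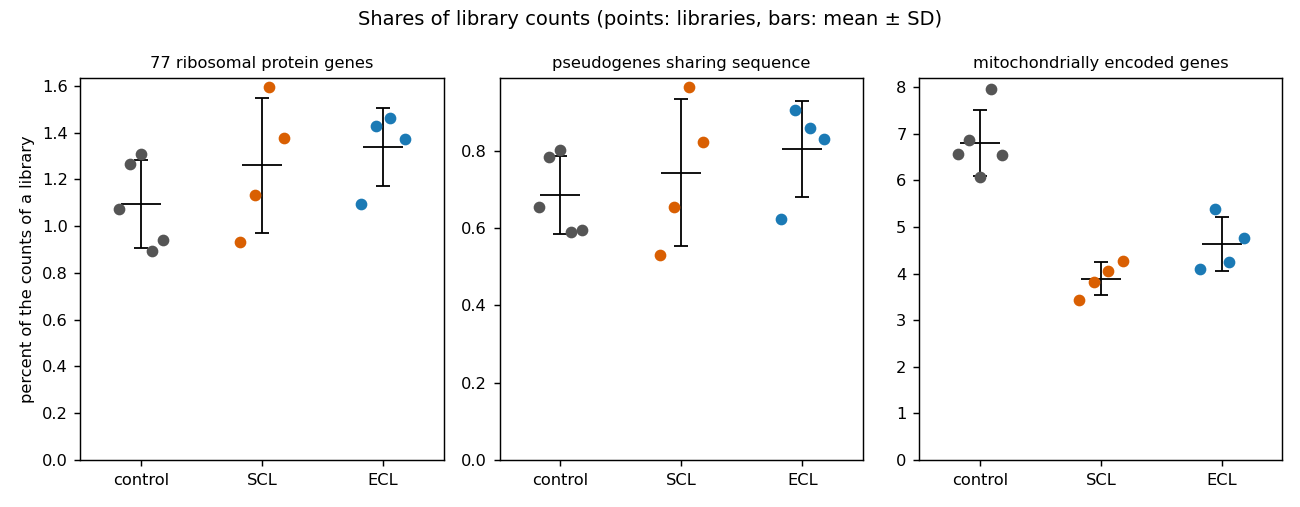
Percent of the counts of each library on the 77 ribosomal protein genes (left), on the 430 pseudogenes that share sequence with them (middle) and on mitochondrially encoded genes (right), with points for libraries and bars for mean ± SD. In the left and middle panels the groups overlap, with SCL replicate 3 the highest of all, and in the right panel all controls lie above all lesioned cultures.

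After SCL, few members changed. Of 74 tested, 6 were called higher and 3 lower at an adjusted p under 0.05 (edgeR's quasi-likelihood test, Benjamini-Hochberg over all 11438 genes), 12.2% against a background of 24.9% of all genes tested. Higher were Rpl32, Rps19, Rps7, Rpl34, Rpl31 and Rpl7a, and lower were Rps3a1, Rpl10 and Rpl27a. The median log2 fold change of the members was 0.15 and that of all genes tested 0.01, with 51 of 74 members above 0. SCL and control libraries did not overlap for 9 members, against 23.7% of all genes, and 21 had an unadjusted p under 0.05, against 38.8%. With scaling factors over all symbols, 18 members were called higher and 1 lower (27.2% of all genes were called), and the median of all genes moved to 0.21 and that of the members to 0.35. With an offset for length and GC content, 3 were called higher and 7 lower (23.8% of all genes), and the median of the members became -0.08. Leaving out SCL replicate 3 left 3 members called higher (14.99% of all genes were called in either direction), and leaving out control 3 or SCL replicate 1 or 2 left 1 called lower.

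After ECL, the share of members called was close to that of all genes. There were 13 higher and 7 lower (edgeR, adjusted p under 0.05 over 11212 genes), 27.0% against a background of 27.8%. Among the higher were the 6 genes called higher after SCL and Rpl18, Rpl39, Rps14, Rpl7, Rps16 and Rps15a. Lower were Rpl27a, Rpl37, Rps3a1, Rps12, Rpl9, Rpl23 and Rpl30. The median log2 fold change was 0.19, against -0.01 for all genes, and 48 of 74 members lay above 0. The libraries did not overlap for 19 members, against 25.1% of all genes, and 29 had an unadjusted p under 0.05, against 40.3%. Scaling over all symbols gave 27 higher and 3 lower (27.9% of all genes were called) and medians of 0.37 for the members and 0.18 for all genes, and the offset for length and GC content gave 9 higher and 20 lower (29.8% of all genes) and a median of -0.07. Without ECL replicate 4, 13 members and 18.8% of all genes were called, and without ECL replicate 1 or 4, 4 were called lower. In all, 8 members were called after both lesions, each in the same direction, 1 after SCL only, 12 after ECL only and 53 in neither comparison. The same 5 controls entered both comparisons.

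Rpl32, a large subunit protein whose reference transcript holds no stretch shared with another gene name, had the largest rise after either lesion. Its gene lies on chromosome 6 from 115805505 to 115808747 of GRCm38. It had 209, 262, 238, 181 and 181 CPM in the 5 controls, 300.0, 337, 979 and 366 after SCL and 437, 981, 534 and 771 after ECL. Every lesioned library lay above every control, and SCL replicate 3 and ECL replicate 2 stood highest. The difference from controls was significant after ECL (log2 fold change 1.67, SE 0.22, adjusted p = 0.000218) and after SCL (log2 fold change 1.21, SE 0.30, adjusted p = 0.0138). Without SCL replicate 3 it was 0.65 (adjusted p = 0.0240) after SCL, and with the offset for length and GC content 0.77 (adjusted p = 0.0515). Of its exon bases, 53 overlap Cand2 on the opposite strand and 140 the small nucleolar RNA Snora7a, and the counting was without regard to strand.

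Rps19, the small subunit protein most often mutated in Diamond-Blackfan anaemia, had the next largest rise. On chromosome 7 from 24884371 to 24889806, it had 117, 159, 148, 64.3 and 82.2 CPM in controls, 160.5, 192, 478 and 214 after SCL and 227, 435, 332 and 378 after ECL. The groups did not overlap, and control 4 was the lowest and SCL replicate 3 the highest library. The log2 fold change was 1.59 after ECL (SE 0.26, adjusted p = 0.000761) and 1.19 after SCL (SE 0.33, adjusted p = 0.0208), and without SCL replicate 3 or control 5 the latter was 0.72 (adjusted p = 0.0806) or 1.08 (adjusted p = 0.0545). The near-identical Rps19-ps6 shown above moved in the same direction, with 37.1 ± 17.5 CPM in controls, 132 ± 90.7 after SCL and 204 ± 58.0 after ECL (log2 fold change 2.47, adjusted p = 0.000280 after ECL).

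Rps7, which is needed for rRNA processing of the small subunit and can bind the p53 regulator Mdm2, and the large subunit proteins Rpl34, Rpl31 and Rpl7a rose after both lesions. Rps7 (on chromosome 12 from 28630854 to 28635953) had 26.8, 20.2, 25.2, 16.8 and 28.1 CPM in controls, 29.6, 35.3, 65.5 and 32.2 after SCL and 44.4, 68.3, 45.5 and 49.1 after ECL. All lesioned libraries lay above all controls, SCL replicate 1 by the smallest margin, and the changes were 1.15 (adjusted p = 0.000912) after ECL and 0.80 (adjusted p = 0.0304) after SCL on the log2 scale. The value after SCL was 0.47 (adjusted p = 0.126) without SCL replicate 3, 0.74 (adjusted p = 0.0610) without control 2 and 0.69 (adjusted p = 0.0530) without control 4. It was 0.56 (adjusted p = 0.0985) with the offset for length and GC content and 0.76 (adjusted p = 0.0502) with a term for sex. Rpl34 (on chromosome 3 from 130726831 to 130730398) had 111, 139, 128, 94.0 and 84.2 CPM in controls, 161, 175, 242 and 189 after SCL and 149.6, 202, 177 and 178 after ECL. The lesioned libraries of Rpl34 were all above the controls (log2 fold change 0.78, SE 0.17, adjusted p = 0.00763 for SCL and log2 fold change 0.67, SE 0.16, adjusted p = 0.00825 for ECL), and the call held under all 21 alternatives in either comparison. Rpl31 (on chromosome 1 from 39367842 to 39371911) rose from 22.7 ± 4.85 CPM to 38.1 ± 6.07 after SCL (log2 fold change 0.75, SE 0.19, adjusted p = 0.0150) and 44.6 ± 5.01 after ECL (log2 fold change 0.98, SE 0.19, adjusted p = 0.00193). Without SCL replicate 3 its value after SCL was 0.63 (adjusted p = 0.0576), and 420 of its exon bases overlap Tbc1d8 on the opposite strand. Rpl7a (on chromosome 2 from 26910764 to 26913318) rose from 23.5 ± 3.23 CPM to 35.9 ± 4.47 (log2 fold change 0.61, SE 0.16, adjusted p = 0.0147) and 36.4 ± 3.95 (log2 fold change 0.64, SE 0.16, adjusted p = 0.0103). With the offset for length and GC content, Rpl7a was at 0.30 (adjusted p = 0.120) after SCL and 0.31 (adjusted p = 0.121) after ECL, and Rpl31 was at 0.45 (adjusted p = 0.0793) after SCL.

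Rps3a1 was the member with the largest fall after SCL, and Rpl27a the one with the largest fall after ECL. Rps3a1, a small subunit protein encoded on chromosome 3 from 86137940 to 86142702, had 448, 484, 582, 612 and 489 CPM in controls, 202, 246, 349 and 384 after SCL and 229.7, 359.7, 366 and 312 after ECL. Every lesioned library lay below every control (log2 fold change -0.82, SE 0.19, adjusted p = 0.00965 for SCL and log2 fold change -0.72, SE 0.17, adjusted p = 0.00652 for ECL), and its calls held under all 21 alternatives in either comparison. Rpl27a, a large subunit protein encoded on chromosome 7 from 109519147 to 109522367, had 59.2, 63.0, 80.4, 72.7 and 56.97 CPM in controls, 30.0, 43.9, 46.0 and 58.6 after SCL and 34.1, 40.3, 46.6 and 37.6 after ECL. The ECL libraries lay below all controls (log2 fold change -0.74, SE 0.16, adjusted p = 0.00384), while SCL replicate 4 overlapped with them (log2 fold change -0.58, SE 0.19, adjusted p = 0.0397). Leaving out SCL replicate 1, 2 or 3 or control 3 or 4 ended the call of Rpl27a after SCL, with log2 fold changes of -0.43 (adjusted p = 0.100), -0.57 (adjusted p = 0.0912), -0.59 (adjusted p = 0.0836), -0.49 (adjusted p = 0.0842) and -0.55 (adjusted p = 0.0605).

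**Figure D3:**
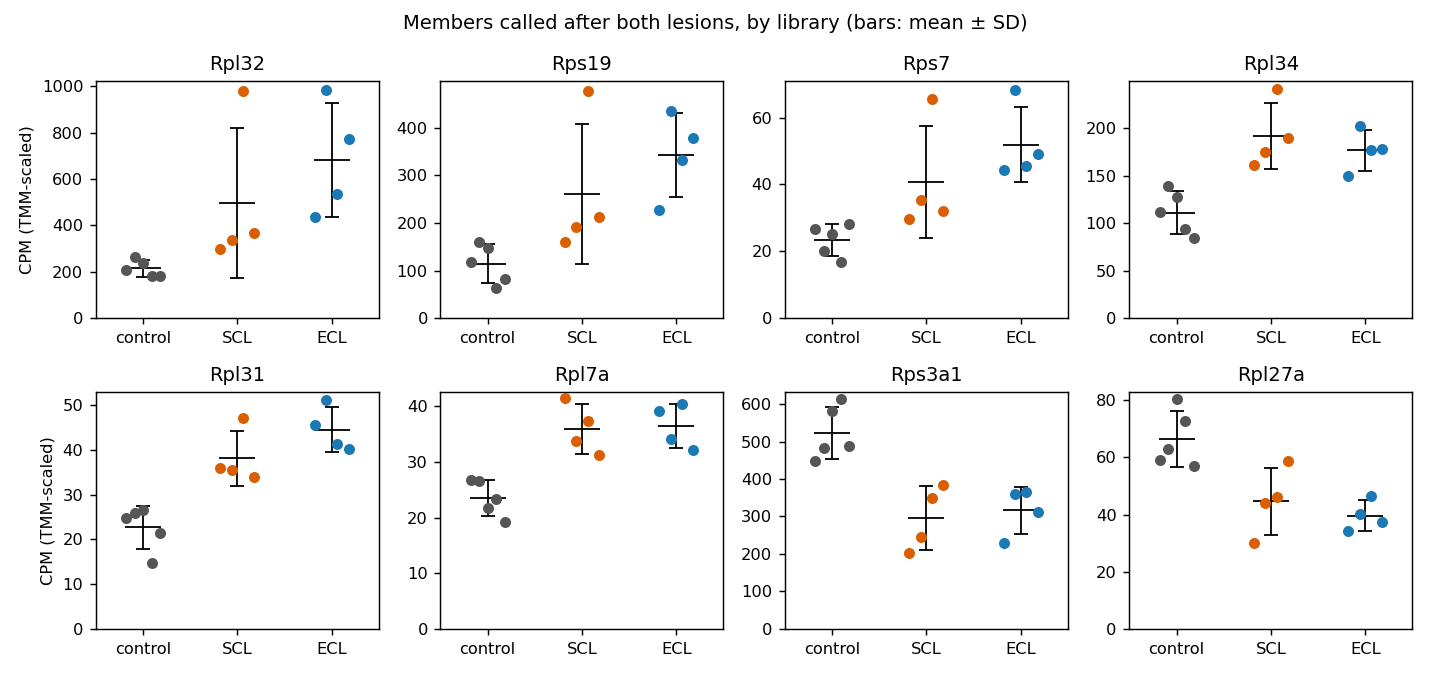
CPM of the 8 members called after both lesions in each library, with bars for mean ± SD (controls n = 5, SCL and ECL n = 4). Rpl32, Rps19, Rps7, Rpl34, Rpl31 and Rpl7a lie higher after the lesions and Rps3a1 and Rpl27a lower, and SCL replicate 3 stands apart in Rpl32, Rps19 and Rps7.

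Several members were called after ECL only. Each of them changed in the same direction after SCL without passing the test, and none of them was called in ECL against SCL. After SCL, Rpl39 was at 0.84, Rpl18 at 0.78, Rpl7 at 0.40 and Rps12 at -0.54 (adjusted p = 0.0783, 0.0737, 0.0749 and 0.0728). Rpl18, of the large subunit, had 43.6 ± 19.0 CPM in controls, 75.02 ± 20.6 after SCL and 94.1 ± 11.6 after ECL (log2 fold change 1.12, SE 0.27, adjusted p = 0.00870), and 373 of its exon bases overlap Sphk2 on the opposite strand. Rpl7, also of the large subunit, lay between 269 and 316 CPM in controls and between 387 and 579 after ECL (log2 fold change 0.64, SE 0.14, adjusted p = 0.00532). Rps14 had 918, 1224, 1354, 502 and 701 CPM in controls and 1176, 1738, 1852 and 1526 after ECL, with overlap, since ECL replicate 1 lay below controls 2 and 3. Its call (log2 fold change 0.75, SE 0.25, adjusted p = 0.0404) was lost when control 1, 4 or 5 or ECL replicate 2, 3 or 4 was left out, with adjusted p-values from 0.0599 to 0.0990. A term for sex (0.60, adjusted p = 0.115) or the offset for length and GC content (0.50, adjusted p = 0.0791) ended the call of Rps14 as well. Rpl39, Rps16 and Rps15a (log2 fold changes 0.77, 0.61 and 0.57, adjusted p = 0.0330, 0.0349 and 0.0359) and Rpl9 (-0.61, adjusted p = 0.0257) overlapped with the controls as well, and each lost its call under at least 8 of 21 alternatives, among them a term for sex. Rpl37 (log2 fold change -0.72, SE 0.14, adjusted p = 0.00235) and Rpl23 (log2 fold change -0.54, SE 0.13, adjusted p = 0.00874), both of the large subunit, fell without overlap. Rpl37 lay between 108 and 119 CPM in controls and between 58.0 and 84.5 after ECL, and Rpl23 between 207 and 238 CPM in controls and between 125 and 171 after ECL. With pseudogene counts added, Rpl37 was at -0.30 (adjusted p = 0.0816) and Rpl23 at -0.39 (adjusted p = 0.0549), and with scaling over all symbols or without the minimum Rpl23 was at -0.35 (adjusted p = 0.0560) or -0.35 (adjusted p = 0.170). Rps12 fell by 0.71 and Rpl30 fell by 0.53 on the log2 scale (adjusted p = 0.0191 and 0.0179). Without ECL replicate 1 or 4 both calls were lost, with adjusted p-values of 0.0618 and 0.0584 for Rps12 and 0.0552 and 0.0529 for Rpl30, and that of Rps12 also without replicate 2 (0.0556). With scaling over all symbols or without the minimum, adjusted p-values were 0.0690 and 0.151 for Rps12 and 0.101 and 0.238 for Rpl30. With pseudogene counts added, Rpl30 was at -0.18 (adjusted p = 0.405) and Rps12 at -0.72 (adjusted p = 0.0140). Rpl10, which joins the large subunit late in its assembly and is encoded on the X chromosome, was called after SCL only, with 17.5 to 30.8 CPM in controls and 10.9 to 18.6 after SCL (log2 fold change -0.66, SE 0.22, adjusted p = 0.0410), with overlap. Its call was lost under 11 of 21 alternatives, among them a term for sex (log2 fold change -0.68 (adjusted p = 0.0505)) and leaving out control 1, 3 or 5 or SCL replicate 1, 2 or 4 (adjusted p from 0.0667 to 0.113).

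Adding the counts of pseudogenes to their parent genes changed which members were called. Here too, copies annotated as coding genes were not added. After ECL, 11 of the 20 called members kept their call, 9 lost it and 7 others gained one, giving 15 higher and 3 lower of 77, with 27.7% of all genes called in that fit. After SCL, 5 of 9 kept it, 4 lost it and 2 gained one, giving 6 higher and 1 lower, with 25.0% of all genes called. Rpl32 has no such pseudogene, and Rps19 (1.80 after ECL and 1.34 after SCL), Rps7 (1.05 and 0.68), Rpl34 (0.71 and 0.80) and Rps3a1 (-0.63 and -0.78) kept their calls after both lesions. Rpl31 was then at 0.39 (adjusted p = 0.0699) and Rpl7a at 0.04 (adjusted p = 0.866) after ECL. The calls lost after SCL were those of Rpl31 (0.33, adjusted p = 0.165) and Rpl7a (0.17, adjusted p = 0.371). Those of Rpl10 (-0.48, adjusted p = 0.114) and Rpl27a (-0.01, adjusted p = 0.978) were lost as well. After ECL, Rpl27a turned from -0.74 to 0.26 (adjusted p = 0.307). Its pseudogene Gm7536, identical to it over 444 coding bases, had 74.2 ± 19.6 CPM in controls and 128 ± 38.6 after ECL. Of the 11 members with at least 90% unique stretches, Rpl32, Rpl39 and Rps15a were called higher after ECL and none lower, and after SCL only Rpl32 was called. With pseudogene counts added, Rps15a was at 0.39 (adjusted p = 0.130) after ECL and lost its call, and Rpl39 kept its own (0.77, adjusted p = 0.0326). The ECL calls of Rpl32, Rpl39 and Rps15a held under 21, 13 and 12 of 21 alternatives.

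**Figure D4:**
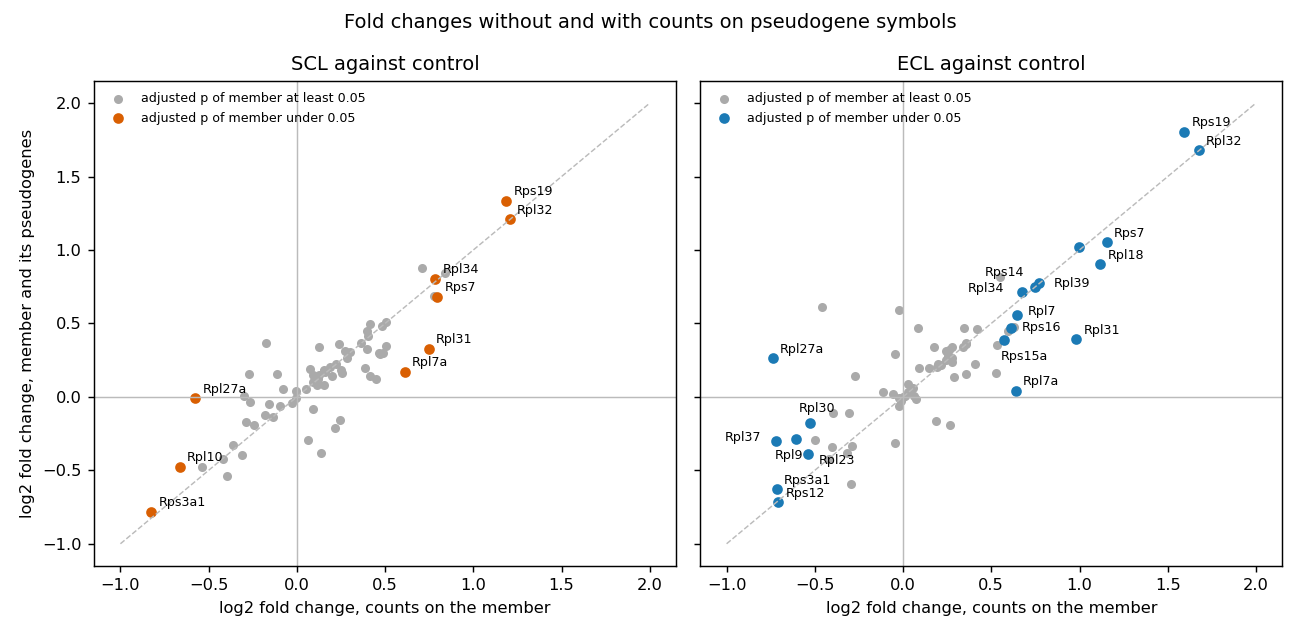
Log2 fold change of each of the 74 tested members (x axis) against the same with the counts of its pseudogenes added (y axis), for SCL (left) and ECL (right), with members called at an adjusted p under 0.05 coloured and, but for 1 gene, named, and a dashed line of equality. Rpl32, Rps19, Rps7, Rpl34 and Rps3a1 lie near the line in both panels, while Rpl31, Rpl7a and Rpl27a lie away from it.

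A direct test between the lesions called no member by edgeR and 1 by DESeq2. In ECL against SCL, where 2 members did not overlap (3.74% of all genes), 0 of 74 members and 0 of 12232 genes (background 0%) had an adjusted p under 0.05 by edgeR, and 5 members had an unadjusted p under 0.05, against 7.33% of all genes. The median log2 fold change was 0.04 for the members and 0.01 for all genes. With a term for sex, which the lesion groups hold in unequal numbers, the median of the members was -0.10 and again 0 members were called. DESeq2 called 1 member, Rps29 of the small subunit, with 7.45, 9.08, 8.20 and 7.89 CPM after ECL and 11.6, 14.5, 17.1 and 13.8 after SCL, and 62 genes in all. The groups of Rps29 did not overlap, and its log2 fold change was -0.80 in edgeR (adjusted p = 0.382). In SCL replicate 3, 66 of the 74 members were above their group mean, against 7 in SCL replicate 1, 9 in replicate 2 and 49 in replicate 4.

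Members of both subunits were called in both directions, beside 24.9% of all genes after SCL and 27.8% after ECL. In the small subunit, 2 of 30 tested were higher and 1 lower after SCL (10.0%, median 0.19) and 5 higher and 2 lower after ECL (23.3%, median 0.20). In the large subunit, 4 of 44 were higher and 2 lower after SCL (13.6%, median 0.14) and 8 higher and 5 lower after ECL (29.5%, median 0.13). The stalk proteins Rplp0, Rplp1 and Rplp2, which recruit elongation factors, had log2 fold changes of 0.36, 0.01 and 0.36 after ECL and of 0.40, -0.003 and 0.30 after SCL, none past the test. Rpl5 and Rpl11, which carry the 5S rRNA into the large subunit and bind Mdm2, were at -0.32 and 0.36 after ECL (adjusted p = 0.280 and 0.142). Of the proteins lining the tunnel through which the peptide leaves, Rpl39 was called higher after ECL (log2 fold change 0.77, SE 0.25, adjusted p = 0.0330), and Rpl4 (0.25) and Rpl17 (0.08) did not pass. Rpl39 was at 0.84 (adjusted p = 0.0783) after SCL. With pseudogene counts added, Rpl17 was at 0.47 (adjusted p = 0.0466) after ECL. Rps6, the target of the S6 kinases downstream of mTORC1, was at 0.20 after SCL and 0.24 after ECL (adjusted p = 0.484 and 0.369). Rps27a, made as a fusion with ubiquitin, was at 0.14 and 0.19. With pseudogene counts added, Rps27a was at -0.38 after SCL and -0.17 after ECL (adjusted p = 0.197 and 0.529). In Rps27a, Rps6, Rpl5, Rpl11 and Rpl17, the most abundant pseudogene held more counts in controls than the gene itself. Rps3, at the mRNA entry and with 100% unique stretches, was at 0.22 and 0.21 (adjusted p = 0.210 and 0.272). Among 55 tested members with a promoter window, the 30 with the TOP stretch had a median of 0.26 after ECL (7 higher, 1 lower) and the 25 without it 0.03 (2 higher, 5 lower). After SCL these medians were 0.23 and 0.12, with 4 higher and 1 lower against 1 higher and 2 lower. These counts stand beside the same shares of all genes, and the difference was not tested.

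Ribosomal proteins of mitochondria and other short coding genes had higher medians than the cytosolic ones. Of 75 tested nuclear genes for the mitochondrial ribosome, 36 were called higher and 1 lower after SCL (median log2 fold change 0.51), and 40 higher and 2 lower after ECL (median 0.56). The shares called were 49.3% and 56%, against 24.9% and 27.8% of all genes tested. Mrpl51 had 72.2 ± 8.12 CPM in controls, 133 ± 46.0 after SCL and 173 ± 32.3 after ECL (log2 fold change 1.27, adjusted p = 0.000123). The remaining coding genes with reference transcripts of at most 1000 bases had medians of 0.44 after SCL and 0.47 after ECL, with 42.2% and 49.7% called. Those with transcripts over 3000 bases had medians of -0.15 and -0.15. Transcript lengths of the cytosolic members had a median of 774 bases, so that their medians of 0.15 and 0.19 lay below those of coding genes of like length. The differences between these sets were not tested.

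**Figure D5:**
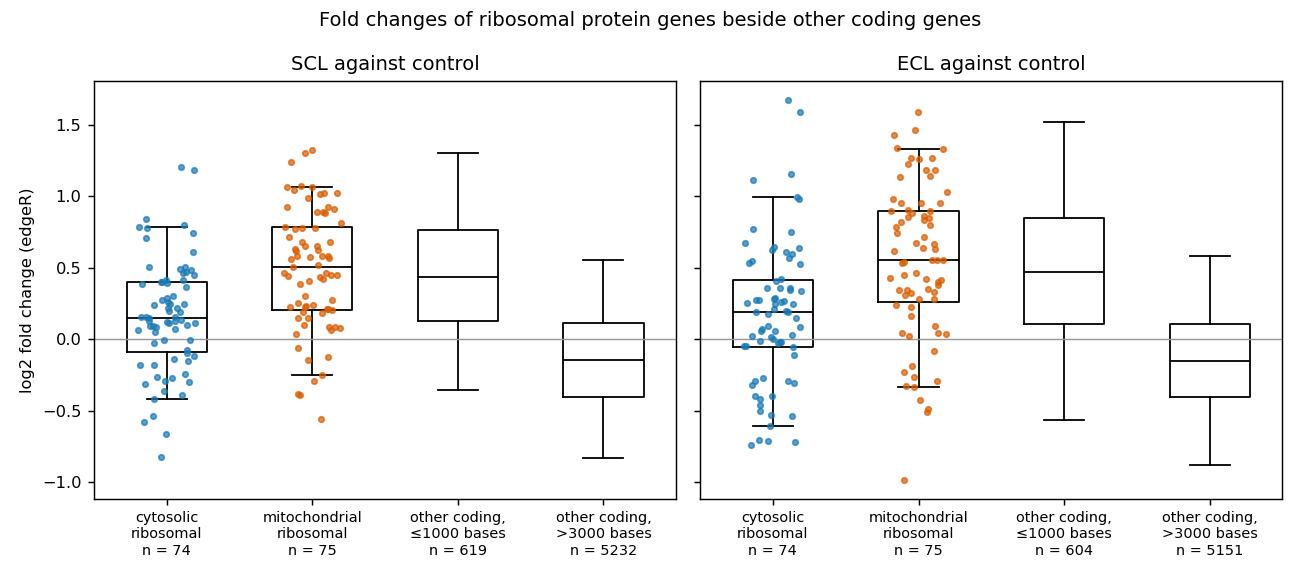
Log2 fold changes (edgeR) after SCL (left) and ECL (right) of cytosolic and mitochondrial ribosomal protein genes (points for genes) and of other coding genes with short or long reference transcripts; boxes give quartiles and medians and whiskers the 5th to 95th percentile. The box of the cytosolic genes lies between those of the short and the long coding genes in both panels.

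Genes that act with the ribosome moved in both directions. Of all genes tested, 24.9% were called after SCL and 27.8% after ECL. The shares called after SCL and ECL were 33.3% and 27.5% for translation factors and 16.3% and 26.4% for ribosome biogenesis genes. They were 23.5% and 23.5% for the other TOP mRNAs and 21.1% and 36.8% for the regulators of TOP mRNAs and mTORC1. Of 51 tested translation factors, 10 passed the test upward and 7 downward in SCL cultures, against 8 and 6 in ECL cultures. Eif3k, a subunit of the initiation factor eIF3, had 74.2 ± 26.8 CPM in controls, 180.4 ± 71.6 after SCL and 258 ± 32.6 after ECL (log2 fold change 1.81, adjusted p = 0.000381 after ECL), and Eif5a, which helps form difficult peptide bonds, had 78.4 ± 31.0 CPM in controls, 189.7 ± 58.4 after SCL and 228 ± 41.7 after ECL (log2 fold change 1.54, adjusted p = 0.00129). The scaffold Eif4g1 (log2 fold change -0.78, adjusted p = 0.00260) and the eIF3 core subunit Eif3a (log2 fold change -0.75, adjusted p = 0.00591) were lower after SCL, and Eif4g3 (log2 fold change -0.72, adjusted p = 0.00127) was lower after ECL. Of the ribosome biogenesis genes, 6 of 92 passed upward and 9 downward in SCL cultures, and 11 of 91 upward and 13 downward in ECL cultures. The helicase Ddx10 was lower after both (67.6 ± 8.52 CPM in controls, 33.9 ± 6.42 after SCL and 35.1 ± 4.69 after ECL), Pno1, an assembly factor of the small subunit, was higher after SCL (log2 fold change 1.06, adjusted p = 0.00718), and Rrn3, an initiation factor of RNA polymerase I, was lower after ECL (log2 fold change -1.48, adjusted p = 0.00583). Of 17 tested TOP mRNAs that encode no ribosomal protein, 2 passed the test upward and 2 downward in SCL cultures, against 1 and 3 in ECL cultures, among them the elongation factor subunit Eef1b2 with 428 ± 136 CPM in controls, 243 ± 36.5 after SCL and 239 ± 31.8 after ECL, lower after both. Of 19 tested regulators of TOP mRNAs and mTORC1, 4 passed the test upward and 0 downward in SCL cultures, against 4 and 3 in ECL cultures. The translation repressor Eif4ebp1 had 14.0 ± 3.62 CPM in controls, 27.3 ± 6.49 after SCL and 34.6 ± 7.27 after ECL (log2 fold change 0.96, adjusted p = 0.0117 for SCL and log2 fold change 1.31, adjusted p = 0.00118 for ECL). Cnbp, a protein that binds TOP mRNAs, had 453 ± 81.9 CPM in controls, 885 ± 249 after SCL and 969.6 ± 304 after ECL, called higher after both lesions.

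Of 8 tested paralogs and relatives outside the rule, 2 were called higher after SCL and 2 after ECL, and 0 lower. This was 25% after either lesion, against 24.9% of all genes tested after SCL and 27.8% after ECL. Rpl7l1, a paralog of Rpl7, with 98.3% unique stretches, had 35.1 ± 7.46 CPM in controls, 67.4 ± 16.2 after SCL and 79.6 ± 15.6 after ECL and was called higher after both (log2 fold change 0.94, adjusted p = 0.00713 and log2 fold change 1.19, adjusted p = 0.000668). Rack1, a signalling scaffold on the small subunit with 100% unique stretches, had 283 ± 22.1, 297 ± 48.5 and 271 ± 49.4 CPM (log2 fold changes 0.07 and -0.05, adjusted p = 0.752 and 0.812). Over the 13 libraries, the 5 non-member genes whose log2 level followed the summed CPM of the 77 members most closely, of 11032 ranked, were Rps16-ps2 (Pearson's r 0.98), Gm7536 and Rpl36a-ps2 (0.95 each), Rps24-ps3 and Gm10073 (0.93 each). Of these 5, 4 are annotated as processed pseudogenes, and all points share their libraries and scaling.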

How the data were processed

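RNA-seq libraries of 13 CA1 isolates, 1 culture each, were compared by lesion as the labels give it. The deposited values are whole-number counts per gene that the authors made with cutadapt 3.5, STAR 2.7.8a and featureCounts 2.0.1 on mm10/GRCm38, without strand. The handling of reads that match several places is not given in the sources used here. Total counts ranged from 14371152 to 56786613, and between 63.0% and 74.3% of the counts from 1 to 20 were even numbers. Each pair of groups was fitted by itself with edgeR 4.0.16 (R 4.3.3), quasi-likelihood test, TMM scaling over genes whose mean normalized count reached 150, without covariates, and with Benjamini-Hochberg adjustment over all genes tested. Simulated counts with known fold changes were used to test the code. CPM use TMM factors over all libraries, and lengths, exon overlaps and shared 100-base stretches come from GENCODE M21, which holds 53292 of the 55291 symbols. Alternatives included DESeq2 1.42.0 and other scalings, filters, terms and libraries. Adding pseudogene counts, and leaving out control 4 with the deepest lesion library, were chosen after seeing the data. The members and lists were chosen with earlier results of these data known. Named with values were, per comparison, up to 6 called members per direction by adjusted p, those of largest change, every member called in ECL against SCL, the 3 highest and 3 lowest tested by level, untested members, up to 3 called genes of each list per comparison, paralogs and the 5 genes most alike in pattern. Results of some members are not reported here. Other members were named by their role or for a lost call after their values were seen. The libraries are separate cultures that may share animals, so p-values measure only the spread between these cultures.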

Additional observations from a re-analysis of the deposited data

Results flagged for a closer look

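In SCL replicate 3, 4 of the 20 called members checked lay far from the other 3 SCL libraries by Dixon's criterion. These 20 and the summed share of the members were checked in each group, 63 groups of values in all; chance gives about 1 in 20. Rpl32 had 979 CPM there (300.0 to 366 in the others), Rps19 478 CPM (160.5 to 214), Rps7 65.5 CPM (29.6 to 35.3) and Rpl31 47.2 CPM (34.0 to 35.9).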

How the results depend on the processing

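Over the named members and their alternatives, 1199 values kept their side of the threshold, 61 were no longer past it and 13 were newly past it. The 1 called value that reversed was that of Rpl27a after ECL with pseudogene counts added (0.26). Values not past the threshold could change sign and still count as kept. Rpl12 after SCL, for example, went from 0.09 to -0.08 with pseudogene counts added. For SCL against control, 9 members were called (6 higher, 3 lower, median 0.15), beside 24.9% of all genes. Scaling over all symbols gave 19 (18 and 1, 0.35) beside 27.2%, and the length and GC offset gave 10 (3 and 7, -0.081) beside 23.8%. Without the minimum, 20 of 77 members were called (19 and 1, 0.35), beside 11.2% of all genes, whose median was -0.40. Pseudogene counts, or leaving out control 4 with the deepest SCL library, left 1 lower. For ECL against control, the 20 called members (13 higher, 7 lower, median 0.19) became 30 (27 and 3) with scaling over all symbols, 23 (20 and 3) without the minimum and 29 (9 and 20, -0.074) with the offset. Pseudogene counts left 3 lower and leaving out control 4 with the deepest ECL library left 4. DESeq2 called 1 member in ECL against SCL, a lower one. The summed share after ECL was 1.52% when only coding counts without mitochondrially encoded genes formed the total. A term for sex gave 7 called members after SCL (22.6% of all genes), 15 after ECL and 0 in ECL against SCL, where it turned the median from 0.04 to -0.10. The causes were not tested.

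Leaving out 1 library at a time gave 6 to 11 called members (3 to 8 higher, 1 to 4 lower, median 0.05 to 0.23) after SCL, and 13 to 22 (9 to 16 higher, 4 to 8 lower, median 0.10 to 0.21) after ECL. In ECL against SCL it gave 0 called members and medians from -0.05 to 0.20. The summed share lay between 1.04 and 1.15% in controls, 1.15 and 1.37% after SCL and 1.30 and 1.42% after ECL.

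With the replicate number as a block, 9 members were called after SCL (6 higher, 3 lower), 19 after ECL (12 higher, 7 lower) and 0 in ECL against SCL. Of all genes, 20.5% were called after SCL with this block. Over 12 pairs of libraries with the same number, deviations from the group means correlated between -0.165 and 0.542, and over pairs with different numbers between -0.408 and 0.354. The highest values were those of ECL and SCL replicate 1 (0.542) and of control and ECL replicate 3 (0.426). Same-number pairs lay on both sides of 0, so these values do not settle whether the numbers pair the cultures. The main fits used no block.

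The count minimum left 3 of 77 members untested. Counts of members with near-identical copies, and of those overlapping other genes on either strand, remain uncertain.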
